A study of Mus musculus with 12 samples.

Results

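The ErbB receptors and their ligands were followed as a family of 9 genes in perihematomal brain tissue, chosen by gene symbol. The genes encode the receptors Egfr, Erbb2, Erbb3 and Erbb4, the neuregulins Nrg1, Nrg2 and Nrg3, and the epidermal growth factor (EGF) type ligands Hbegf and Areg. All 9 symbols were present among the 54833 genes listed, and 8 of them were among the 21495 genes that passed the filter on low counts. Areg, which encodes amphiregulin, did not pass. The family was chosen with the fall of Erbb4 after intracerebral hemorrhage (ICH) in aged mice in view, so the aged ICH vs. aged sham values of all members are described without a *P*-value.

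ErbB receptors are receptor tyrosine kinases that pair after a ligand binds. Erbb2 has no known ligand and serves as a partner, and Erbb3 has little kinase activity of its own. Neuregulins bind Erbb3 and Erbb4, whereas Hbegf binds Egfr and Erbb4 and Areg binds Egfr. In the brain Erbb4 is known from inhibitory interneurons, Erbb3 from cells of the oligodendrocyte lineage, and Hbegf is made by many cell types, macrophages and glia among them. The membrane-bound precursors of these ligands are cut by proteases before most of the ligand can reach other cells.

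The series held 12 tissue samples of wild-type male C57BL/6 mice, in 4 groups of 3: young animals of 8 to 10 weeks after sham surgery or ICH, and aged animals of 20 to 22 months after either. ICH was induced by infusing type IV collagenase into the basal ganglia, sham animals received saline, and the ipsilateral caudate putamen around the hematoma was taken at 24 h. Tissue of 2 to 3 mice was pooled for each sample, so the spread between samples understates that between animals. Counts summed to between 28410896 and 37785160 per sample. The markers of striatal projection neurons Drd1, Drd2 and Adora2a were detected in all groups. So were 5 genes of cortical neurons, which summed to 1104 to 1385 counts per 1000000 (CPM) in young sham and 696 to 1355 in young ICH samples. Their sum was 895 to 1085 CPM in aged sham and 765 to 1053 in aged ICH samples. Genes of the choroid plexus, a tissue of the adjoining ventricle, summed to 4054 CPM in young ICH sample 3, 1965 in aged ICH sample 2 and 1550 in aged ICH sample 1, and to between 9.62 and 487 in the other samples. Without these 3 libraries the members called in young mice stayed at 1 higher and 2 lower, and the values of Erbb2, Erbb3, Nrg3 and the pathway genes without them are given beside those results.

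Sequences upstream of 3 members are shown because these genes stand for the 3 patterns described below: Erbb4 was lower after ICH at both ages, Erbb2 was higher in all ICH samples, and Areg was barely detected. Each is the 250 bases before the transcription start of the RefSeq gene in GRCm38.p6, written 5′ to 3′ on the strand of the gene. Erbb4 lies at chr1:69108060-69108309 on the minus strand, Erbb2 at chr11:98412234-98412483 on the plus strand, and Areg at chr5:91139349-91139598 on the plus strand. Capitals mark, in Erbb4, 4 tandem copies of GAGC; in Erbb2, the letters CCAAT; and in Areg, the cAMP response element TGACGTCA, the GC box GGGCGG and the TATA box TATAAA, in this order.
Erbb4: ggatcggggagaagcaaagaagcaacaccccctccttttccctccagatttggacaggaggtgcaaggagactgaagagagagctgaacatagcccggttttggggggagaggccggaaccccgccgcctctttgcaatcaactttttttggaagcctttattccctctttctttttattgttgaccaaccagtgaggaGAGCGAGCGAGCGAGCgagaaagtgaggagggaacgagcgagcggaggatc
Erbb2: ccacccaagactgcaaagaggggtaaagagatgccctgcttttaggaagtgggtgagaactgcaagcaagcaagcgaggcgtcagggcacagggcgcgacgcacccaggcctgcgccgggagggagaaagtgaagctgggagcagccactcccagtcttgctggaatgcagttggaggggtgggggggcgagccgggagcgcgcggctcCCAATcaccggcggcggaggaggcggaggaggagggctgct
Areg: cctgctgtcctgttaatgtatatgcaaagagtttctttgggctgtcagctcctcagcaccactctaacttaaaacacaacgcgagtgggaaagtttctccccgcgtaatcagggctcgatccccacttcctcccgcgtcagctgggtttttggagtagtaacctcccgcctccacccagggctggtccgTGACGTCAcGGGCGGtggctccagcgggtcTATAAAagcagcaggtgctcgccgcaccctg
The promoters were searched for 5 motifs on both strands, and the share of all 32851 promoters in the table that held each was 1.55% for TGACGTCA, 6.75% for the AP-1 letters TGANTCA, 32.7% for GGGCGG, 12.4% for TATAAA and 33.8% for CCAAT. The Areg window held TGACGTCA 61 bases, GGGCGG 52 bases and TATAAA 31 bases before the start. The Erbb2 window held CCAAT 41 bases before the start. The Erbb4 window held none of the letters searched, which says only that they were not in this window, and its tandem repeat of 4 or more copies of 4 bases was of a kind found in 0.341% of the promoters. Repeats of simpler units, such as GAGA or AAAA, were left out of that share. GC content was 54% for Erbb4, 66% for Erbb2 and 57.2% for Areg, with a median of 52.4% over all promoters.

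Levels were compared between members as FPKM, a fragment count scaled by transcript length and sequencing depth. In young sham tissue Erbb4 had the highest level, at 6.33 ± 0.658 FPKM (SD, n = 3), followed by Nrg3 at 6.09 and Hbegf at 5.64, and the ranges of these neighbors overlapped. Erbb3 at 2.78 and Nrg2 at 2.49 also overlapped. Egfr at 1.82, Nrg1 at 1.42, Erbb2 at 0.620 and Areg at 0.108 followed, each with a range below that of the gene before it. The ligand Hbegf stood first in both ICH groups, at 13.1 ± 2.72 FPKM in young ICH and 18.9 ± 2.98 in aged ICH, with no overlap with Nrg3, the next gene, at 4.78 and 4.61. Erbb4 came after Nrg3 in both, at 4.19 and 4.30 FPKM. In aged sham tissue Hbegf at 7.93 ± 1.37 FPKM and Erbb4 at 6.46 ± 0.254 led the order with overlapping ranges.

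**Figure D1:**
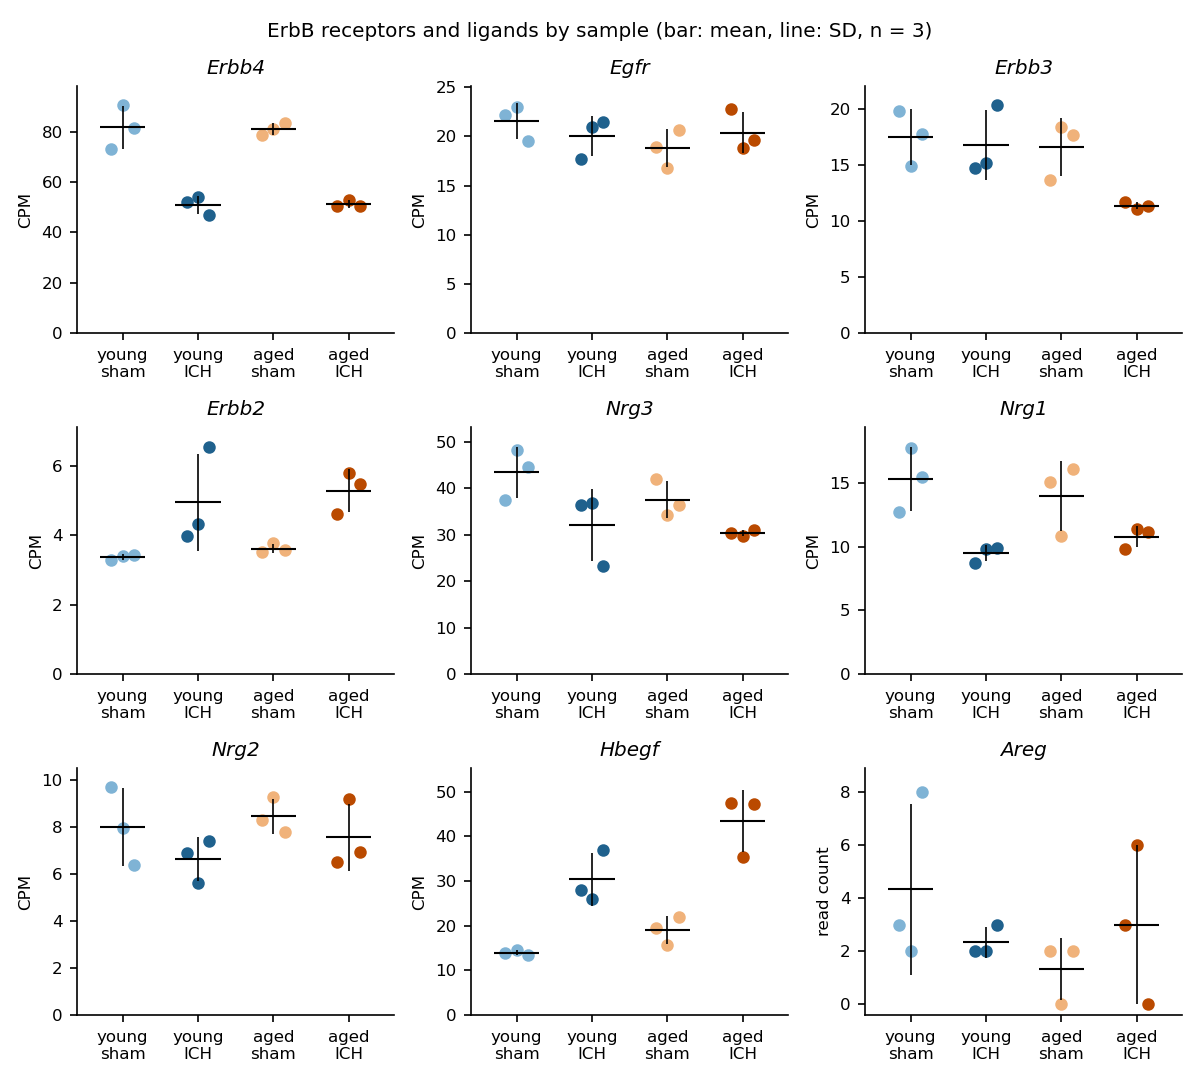
Level of each of the 9 genes in each of the 12 samples, as CPM (as read count for Areg), with 3 points per group, a bar at the mean and a line for the SD. All 6 ICH samples lie below all 6 sham samples for Erbb4 and above all 6 for Hbegf and Erbb2, and the aged ICH samples of Erbb3 lie together at 11.1 to 11.7 CPM.

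Of the 8 members tested in young ICH vs. young sham, Hbegf rose and Erbb4 and Nrg1 fell at an adjusted *P* under 0.05 (edgeR quasi-likelihood test, adjusted over all genes tested). Over all genes tested, 9.89% were called higher and 9.23% lower in this comparison. The criterion of the study, an unadjusted *P* under 0.05 with a fold change (FC) above 1.5 or below 0.67, also gave 1 higher and 2 lower members, beside 8.66% and 3.49% of all genes. The groups did not overlap for 2 members that were higher and 3 that were lower, beside 18.5% and 16.5% of all genes. With 8 members these counts rest on 1 to 3 genes in each direction, and nothing was read from them about the family as a whole. In aged ICH vs. aged sham, 2 members were higher and 3 lower (Erbb3, Erbb4 and Nrg3) without overlap, beside 17.8% and 17.3% of all genes. The fall of Erbb4 in this contrast guided the choice of the family. Erbb4 is in this count and in the aged median below, so neither serves as support for a change. Leaving out the 3 libraries highest in choroid plexus genes left 1 aged ICH sample, so no such count is given for that setting. The median log2FC of the 8 members was -0.19 in young and -0.23 in aged mice, beside 0.02 and 0.00 for all genes tested.

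The neuregulin receptor Erbb4 (ENSMUSG00000062209, GRCm38 chr1:68032186-69108059, minus strand) fell in young mice and had nearly the same levels in the aged groups. It was at 73.0, 90.3 and 81.6 CPM in the young sham samples and at 51.9, 54.0 and 46.8 CPM in the young ICH samples. In the aged mice it was at 78.7, 80.9 and 83.2 CPM after sham and at 50.5, 53.0 and 50.3 CPM after ICH. Sham samples of either age were all above ICH samples of either age, with a gap from 54.0 to 73.0 CPM. The log2FC was -0.68 ± 0.079 (SE; FC 0.623; adjusted *P* = 0.00108, edgeR) in young mice. In aged mice it was -0.66 ± 0.079 (FC 0.633), given without a test. The difference between these responses was 0.02 with a 95% interval of -0.22 to 0.27. Aged and young sham samples differed by -0.01 (95% interval -0.18 to 0.16) and aged and young ICH samples by 0.01 (-0.16 to 0.18). In bulk tissue, fewer cells that express a gene and less RNA per cell cannot be told apart.

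Some markers of neurons moved with the ICH groups as well, and their part in the Erbb4 values was not tested. Of 11 genes listed for interneurons, 3 fell in each ICH comparison. They were Gad1, a gene of a GABA-synthesizing enzyme, the peptide gene Sst and the transcription factor gene Lhx6. Gad1 and Lhx6 are named after their values were seen. Projection neurons of the striatum also make GABA, so Gad1 and Gad2 in this list do not mark interneurons alone. The log2FC was -0.62 and -0.64 for Gad1 and -0.56 and -0.46 for Sst in young and aged mice, while Pvalb had 0.19 and 0.05 (adjusted *P* = 0.549 and 0.892, edgeR). The sum of this list, Gad1 and Gad2 included, was 1040 to 1368 CPM in young sham and 674 to 942 in young ICH samples. It was 1169 to 1441 CPM in aged sham and 738 to 1031 in aged ICH samples. Erbb4 and the mean log2 CPM of this list had r = 0.61 and rho = 0.44 over the 12 samples. Without the 2 farthest samples r was 0.52. Within the groups r was -0.48, with 3 samples per group, which are too few to show a direction. None of the 10 striatal projection neuron genes was called in either comparison, although 2 had an unadjusted *P* under 0.05 in each and the median log2FC was -0.95 in young and -1.11 in aged mice. Their sum varied widely, from 606 to 1872 CPM in young ICH and from 397 to 2081 in aged ICH samples, against 1932 to 3263 and 1663 to 2863 in the sham groups, so that aged ICH and aged sham samples overlapped. For this list r with Erbb4 was 0.58 (rho = 0.39; 0.51 without the 2 farthest samples) over the 12 samples and -0.30 within the groups. Erbb4 varied less within its groups. Its coefficient of variation was 10.7% in young sham, 7.27% in young ICH, 2.78% in aged sham and 2.92% in aged ICH samples. Counting error alone gives 1.99% in aged sham and 2.46% in aged ICH samples, so little of r within the groups comes from aged samples. Other neuron lists had a positive r with Erbb4 within the groups, with the same limit. For 10 pan-neuronal genes r with Erbb4 was 0.79 (rho = 0.74) over the 12 samples, 0.72 without the 2 farthest samples and 0.58 within the groups. For the cortical neuron genes r was 0.52 (rho = 0.62) over the 12 samples, 0.28 without the 2 farthest samples and 0.46 within the groups.

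The genes whose log2 CPM followed Erbb4 most closely over the 12 samples were Cnot6l (Pearson r = 0.98, Spearman rho = 0.94), Epm2aip1 (0.98 and 0.87), Atp8a2 (0.97 and 0.94), Snx13 (0.97 and 0.95) and Plekhm3 (0.97 and 0.85). These points share the contrast between sham and ICH, and within the groups r was 0.80, 0.49, 0.78, 0.85 and 0.73. The correlations are descriptions and carry no test.

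**Figure D2:**
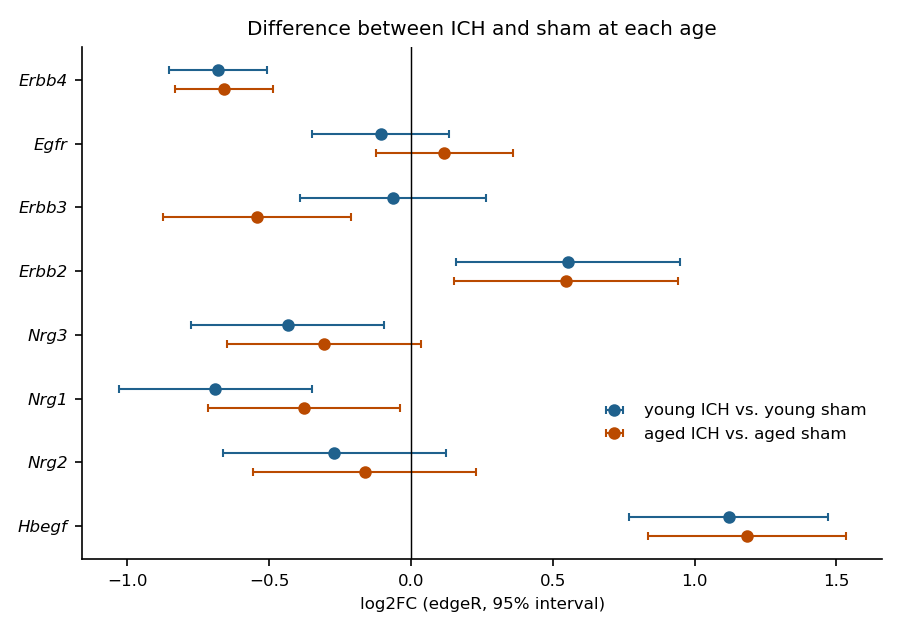
The log2FC of ICH vs. sham (horizontal axis) for 8 genes at each age, with 95% intervals from the edgeR fit over 12 samples; dots at left of 0 are lower after ICH. Erbb4 (-0.68 and -0.66) and Hbegf (1.12 and 1.19) lie at nearly the same place at both ages, whereas Erbb3 is at -0.06 in young and -0.54 in aged mice.

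The co-receptor Erbb3 (ENSMUSG00000018166, chr10:128567523-128589652, minus strand) was lowest in the aged ICH group. It was at 19.8, 14.9 and 17.7 CPM in young sham and at 14.7, 15.1 and 20.3 CPM in young ICH samples. Aged samples were at 13.6, 18.4 and 17.7 CPM after sham and at 11.7, 11.1 and 11.3 CPM after ICH. The young groups overlapped, and the aged ICH samples lay below all 9 others. The log2FC was -0.06 ± 0.15 in young mice (95% interval -0.39 to 0.26; adjusted *P* = 0.802, edgeR), and its sign turned without any of young sham sample 1 (0.04), young ICH sample 1 (0.02) or young ICH sample 2 (0.01), while it was -0.23 without young ICH sample 3 and -0.23 without the 3 libraries highest in choroid plexus genes. In aged mice it was -0.54 ± 0.152, and -0.55 without those 3 libraries, where the aged ICH group had 1 sample. The difference between the responses was -0.48, with a 95% interval of -0.95 to -0.012 whose upper end was near 0. In aged ICH vs. young ICH the log2FC was -0.56 ± 0.152 (unadjusted *P* = 0.0034), which did not pass the adjustment (adjusted *P* = 0.26, edgeR, and 0.0557, DESeq2). This log2FC was smaller without young ICH sample 3, at -0.40 (adjusted *P* = 0.293, edgeR). Without the 3 libraries highest in choroid plexus genes it was also -0.40, with 1 aged ICH sample left.

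Myelin genes moved with Erbb3. Of 10 oligodendrocyte genes, 3 fell in aged mice, among them Mog, a myelin protein gene, and Cnp, a myelin enzyme gene, with log2FC of -0.85 and -0.81 (adjusted *P* = 0.0136 and 0.0137, edgeR). None was called in young mice by edgeR, where 0 had an unadjusted *P* under 0.05 and Mog had a log2FC of -0.23. In the test of the difference between ages 0 of the 10 were called by edgeR, and 3 had an unadjusted *P* under 0.05. Mbp had log2FC of 0.11 in young and -0.34 in aged mice. The sum of the 10 genes was 4974 to 8496 CPM in young sham, 5872 to 7718 in young ICH, 5492 to 7045 in aged sham and 4441 to 5144 in aged ICH samples. Erbb3 and the mean log2 CPM of these genes had r = 0.92 and rho = 0.87 over the 12 samples, r = 0.88 without the 2 samples farthest from the median and r = 0.87 within the groups. Of the 5 genes most like Erbb3 over the 12 samples, Opalin (r = 0.97), Cnp (0.95) and Mog (0.95) belong to that list; the others were Tmem125 (0.96) and Bfsp2 (0.94). Oligodendrocyte genes were not alone in this. For 8 oligodendrocyte precursor genes, of which 2 fell in aged mice, r with Erbb3 was 0.82 (rho = 0.78) over the 12 samples. It was 0.69 without the 2 farthest samples and 0.47 within the groups. For the pan-neuronal list r was 0.28 (rho = 0.26) over the 12 samples and -0.77 within the groups. The part of these lists in the Erbb3 values was not tested.

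Egfr (ENSMUSG00000020122, chr11:16752203-16918158, plus strand), the receptor of Hbegf and Areg, overlapped between all groups. It was at 22.2, 23.0 and 19.6 CPM in young sham and at 17.7, 21.0 and 21.4 CPM in young ICH samples. Values in aged mice were 19.0, 16.8 and 20.7 CPM after sham and at 22.7, 18.8 and 19.7 CPM after ICH. The log2FC was -0.11 (95% interval -0.35 to 0.13; adjusted *P* = 0.54, edgeR) in young and 0.12 (-0.12 to 0.36) in aged mice, intervals that leave out an FC of 1.5 in either direction. Aged and young sham samples differed by -0.20 (adjusted *P* = 0.493, edgeR). The antisense gene Egfros overlaps Egfr on the opposite strand, and without a stated strand setting of the counting their reads cannot be told apart.

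The partner receptor Erbb2 (ENSMUSG00000062312, chr11:98412470-98437716, plus strand) was higher in all ICH samples than in all sham samples, at low levels. It was at 3.29, 3.39 and 3.43 CPM in young sham and at 3.98, 4.33 and 6.55 CPM in young ICH samples. In the aged mice it was at 3.51, 3.78 and 3.56 CPM after sham and at 4.60, 5.79 and 5.47 CPM after ICH. These CPM rest on 104 to 208 reads per sample, and the young ICH group was spread most, with its highest value in sample 3, the library highest in choroid plexus genes. The log2FC was 0.55 ± 0.181 in young mice, just short of the threshold (adjusted *P* = 0.0516, edgeR), and 0.55 ± 0.18 in aged mice. The call in young mice passed with DESeq2 (adjusted *P* = 0.0372), with a minimum count of 30 (0.0435, edgeR) and without young ICH sample 1 (0.0287) or sample 2 (0.0437). The value depended on young ICH sample 3, and without that library the log2FC was 0.30 (adjusted *P* = 0.195, edgeR), and without the 3 libraries highest in choroid plexus genes it was 0.30 (adjusted *P* = 0.208). The gene Mien1 overlaps Erbb2 on the opposite strand.

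The neuregulins were lower or overlapping after ICH, with Nrg1 called in young mice. Nrg1 (ENSMUSG00000062991, chr8:31814551-32884029, minus strand), a ligand of Erbb3 and Erbb4, was at 12.7, 17.8 and 15.5 CPM in young sham and at 8.76, 9.85 and 9.90 CPM in young ICH samples. In the aged mice it was at 15.1, 10.9 and 16.1 CPM after sham and at 9.87, 11.4 and 11.2 CPM after ICH. The young groups did not overlap, and in the aged mice sham sample 2 lay among the ICH samples. The log2FC was -0.69 ± 0.156 in young mice (FC 0.620; adjusted *P* = 0.0113, edgeR). Without young sham sample 2 the log2FC was -0.57 and the call was lost (adjusted *P* = 0.0558). In aged mice the log2FC was -0.38 (95% interval -0.72 to -0.038), and the difference between the responses was 0.31 (-0.17 to 0.79).

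Nrg3 (ENSMUSG00000041014, chr14:38368952-39473088, minus strand), a ligand of Erbb4, was the most abundant neuregulin in each group on the FPKM scale. It was at 37.4, 48.2 and 44.5 CPM in young sham and at 36.3, 36.7 and 23.2 CPM in young ICH samples. In the aged mice it was at 42.1, 34.2 and 36.4 CPM after sham and at 30.4, 29.7 and 31.0 CPM after ICH. The ICH samples lay below the sham samples at each age, narrowly in young mice, where 36.7 stood below 37.4 CPM. The log2FC was -0.43 ± 0.156 in young mice and did not pass the threshold (adjusted *P* = 0.0724, edgeR), but did with DESeq2 (adjusted *P* = 0.0353) and without young ICH sample 2 (0.0469). Without young ICH sample 3, the library with the lowest Nrg3, the log2FC was -0.25 (adjusted *P* = 0.169, edgeR), and without the 3 libraries highest in choroid plexus genes it was -0.25 (adjusted *P* = 0.219). In aged mice it was -0.31 (95% interval -0.65 to 0.036). Nrg3 and the mean of 10 pan-neuronal genes had r = 0.95 and rho = 0.92 over the 12 samples, r = 0.93 without the 2 farthest samples and r = 0.91 within the groups. Of that list, 3 genes fell in young mice, among them Syt1, a synaptic vesicle protein gene (log2FC -0.65, adjusted *P* = 0.00565, edgeR), and Rbfox3 had -0.04. None was called in aged mice, where 1 had an unadjusted *P* under 0.05. The list's sum was 8177 to 9472 CPM in young sham, 5938 to 7614 in young ICH, 7917 to 8608 in aged sham and 6498 to 7149 in aged ICH samples, with the lowest value in young ICH sample 3, the library with the lowest Nrg3. Nrg3 and the mean of the cortical neuron genes had r = 0.81 and rho = 0.90 over the 12 samples. For these genes r was 0.69 without the 2 farthest samples and 0.74 within the groups. The part of either list in the Nrg3 values was not tested.

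Nrg2 (ENSMUSG00000060275, chr18:36017652-36197380, minus strand), a further ligand of Erbb3 and Erbb4, overlapped in all comparisons. It was at 9.70, 7.93 and 6.37 CPM in young sham and at 6.91, 5.59 and 7.41 CPM in young ICH samples. Aged samples were at 8.28, 9.27 and 7.79 CPM after sham and at 6.52, 9.17 and 6.94 CPM after ICH. The log2FC was -0.27 (95% interval -0.66 to 0.12; adjusted *P* = 0.322, edgeR) in young and -0.16 (-0.56 to 0.23) in aged mice. Nrg2 and the mean of the 11 interneuron genes had r = 0.89 and rho = 0.88 over the 12 samples and r = 0.93 within the groups, so samples of the same group that were high in one were high in the other. This was not particular to interneuron genes. For the striatal projection neuron list r was 0.79 (rho = 0.89) over the 12 samples and 0.85 within the groups. Within the groups r was also 0.91 for oligodendrocyte precursor genes and -0.89 for cortical neuron genes. The part of these lists in the Nrg2 values was not tested.

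Erbb4, Nrg1 and Nrg3 are unusually long genes, spanning 1075874, 1069479 and 1104137 bases of the genome. Calls were therefore also counted by genomic span over the other genes, a split chosen after these values were seen; 21169 of the 21495 genes tested had a span. Of the 54 other genes of 1000000 bases or more, 30 (55.56%) were called lower and 1 higher in young ICH vs. young sham, and 19 (35.19%) lower and 0 higher in aged ICH vs. aged sham. Of the 18675 genes under 100000 bases, 6.97% and 4.56% were called lower. The median log2FC of the 54 longest genes was -0.44 in young and -0.38 in aged mice. Genes share cells and libraries and are not independent replicates, and what span shares with cell type was not tested.

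**Figure D3:**
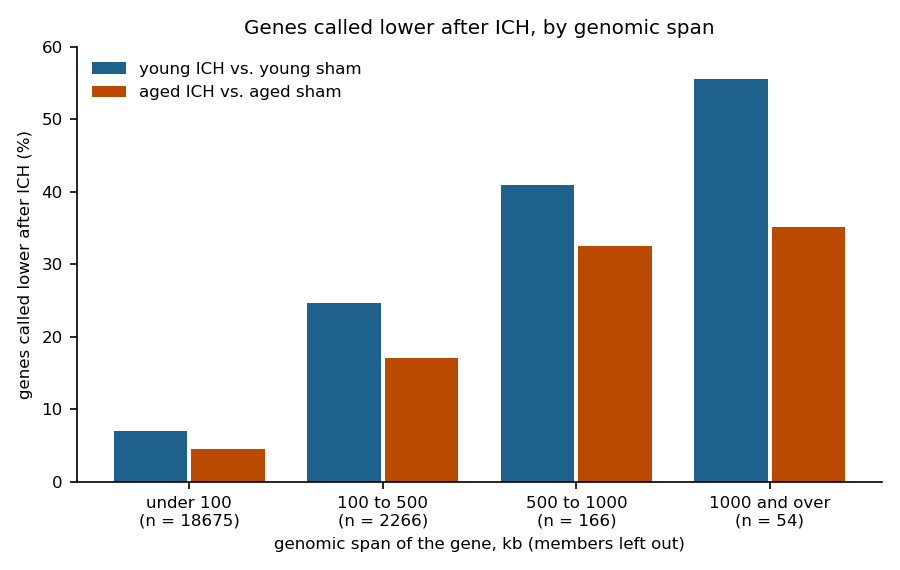
Share of genes called lower after ICH at an adjusted *P* under 0.05 (vertical axis, %) in 4 classes of genomic span (horizontal axis, kb, with the number of genes), for young and aged mice, members left out. The share goes up with span at both ages, from 6.97% to 55.56% in young and from 4.56% to 35.19% in aged mice.

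Hbegf (ENSMUSG00000024486, chr18:36504927-36515805, minus strand), a ligand of Egfr and Erbb4, rose in young mice and had the highest fold change of the 8 members at both ages. It was at 14.0, 14.6 and 13.4 CPM in young sham and at 28, 26.1 and 37.0 CPM in young ICH samples. Values in aged mice were 19.5, 15.7 and 22.0 CPM after sham and at 47.5, 35.3 and 47.3 CPM after ICH. Every ICH sample was above every sham sample. The log2FC was 1.12 ± 0.161 (FC 2.17; adjusted *P* = 0.00187, edgeR) in young mice and 1.19 ± 0.159 (FC 2.27) in aged mice, and the difference between them was 0.07 (95% interval -0.42 to 0.56).

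With age, Hbegf had higher values in both conditions, without passing the adjustment. Each aged sham sample was above each young sham sample, with a log2FC of 0.45 ± 0.161 (unadjusted *P* = 0.0166; adjusted *P* = 0.3, edgeR). Aged and young ICH samples overlapped, since aged sample 2 at 35.3 CPM lay below young sample 3 at 37.0 CPM, and the log2FC was 0.52 ± 0.156 (unadjusted *P* = 0.00663; adjusted *P* = 0.327, edgeR). These comparisons share no samples with each other. Of 7 members tested, 0 were called in aged sham vs. young sham by edgeR, beside 0.102% of all genes, and 0 in aged ICH vs. young ICH, beside 0.0558%; DESeq2 also called 0 in both. At an unadjusted *P* under 0.05 the members were Hbegf in the first comparison, beside 12.3% of all genes, and Hbegf and Erbb3 in the second, beside 9.54%. Without overlap, 2 members (Hbegf and Erbb2) were higher and 0 lower in aged sham samples, beside 9.81% and 11.2% of all genes, and 0 were higher and 1 (Erbb3) lower in aged ICH samples, beside 6.9% and 6.42%.

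Most genes listed for monocytes, macrophages and neutrophils rose in the same comparisons as Hbegf. In bulk tissue, infiltrating and resident cells cannot be told apart. Of 10 monocyte and macrophage genes, 7 rose in young and 6 in aged mice, among them Ccr2, a chemokine receptor gene (log2FC 1.94 and 1.82), and Lyz2, a lysozyme gene (1.93 and 1.08), while Ly6c2 had 0.81 and 0.33 (adjusted *P* = 0.394 and 0.77, edgeR). Their sum was 28.5 to 34.9 CPM in young sham, 122 to 173 in young ICH, 29.8 to 94.7 in aged sham and 154 to 210 in aged ICH samples. Hbegf and the mean log2 CPM of this list had r = 0.93 and rho = 0.92 over the 12 samples, r = 0.96 without the 2 farthest samples and r = 0.68 within the groups. Of 8 neutrophil genes tested, 7 rose in young and 6 in aged mice, among them S100a8 (log2FC 2.61 and 2.46) and S100a9 (3.67 and 2.30), which encode calprotectin subunits. Their list summed to 11.3 to 13.9 CPM in young sham, 22.0 to 40.0 in young ICH, 16.2 to 26.9 in aged sham and 40.2 to 55.9 in aged ICH samples. Hbegf and the neutrophil list had r = 0.92 and rho = 0.92 over the 12 samples, r = 0.89 without the 2 farthest samples and r = 0.24 within the groups. In aged sham vs. young sham, 0 of the 8 were called by edgeR, 7 had an unadjusted *P* under 0.05 and the median log2FC was 2.01. Endothelial genes rose as well, 7 of 10 in young and 6 of 10 in aged mice. Hbegf and the endothelial list had r = 0.86 and rho = 0.86 over the 12 samples. For this list r was 0.79 without the 2 farthest samples and 0.61 within the groups. Of 7 microglia genes, 0 rose and 2 fell at each age. Of 9 astrocyte genes, 4 rose in young mice, and 2 rose and 1 fell in aged mice. Hbegf and the astrocyte list had r = 0.73 and rho = 0.74 over the 12 samples, r = 0.67 without the 2 farthest samples and r = 0.35 within the groups. The genes most like Hbegf over the 12 samples were Ano6 (r = 0.99), Hmga1 (0.99), the chemokine gene Ccl6 (0.99), Plek (0.99) and the chemokine gene Ccl9 (0.99), with r of 0.91, 0.86, 0.89, 0.93 and 0.85 within the groups. The part of the leukocyte, endothelial and astrocyte genes in the Hbegf values was not tested.

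**Figure D4:**
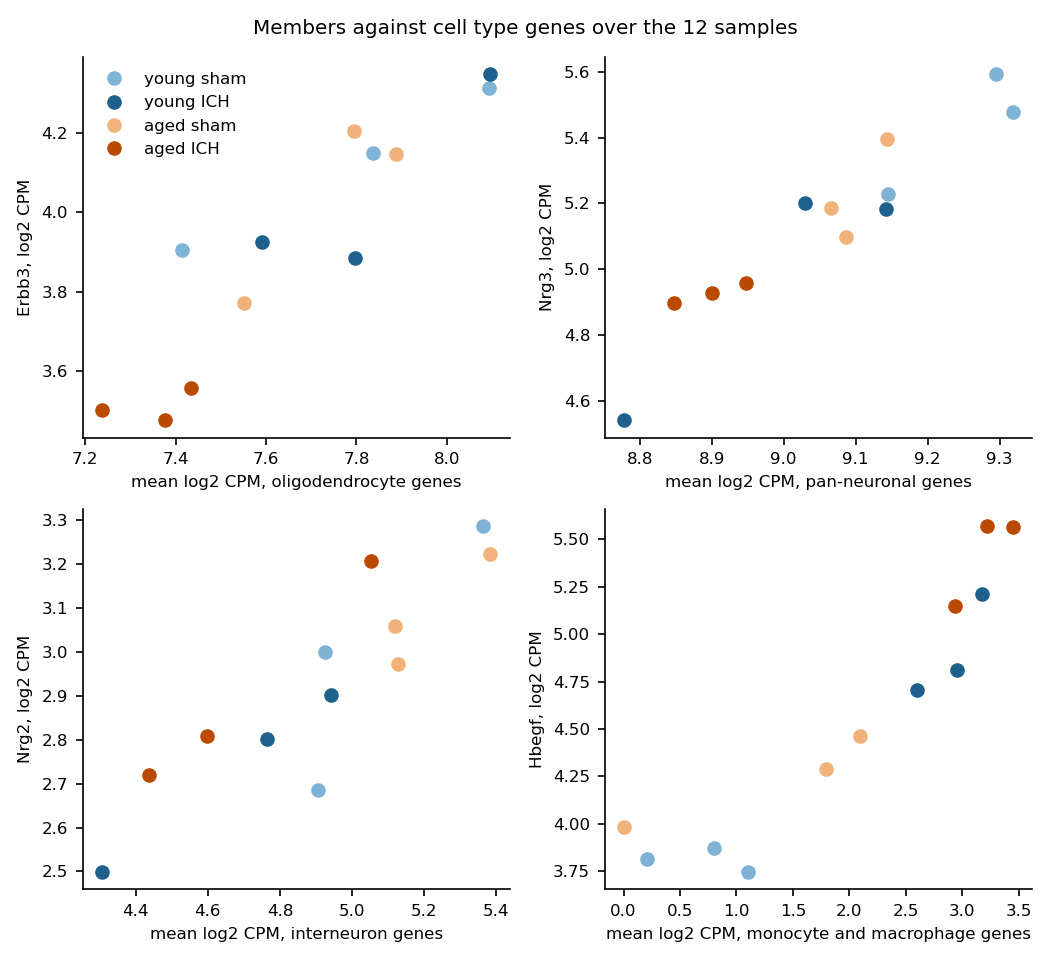
Level of 4 members (vertical axis, log2 CPM) against the mean log2 CPM of a list of cell type genes (horizontal axis), 1 point per sample, colored by group. The points follow the oligodendrocyte list for Erbb3 (r = 0.92), the pan-neuronal list for Nrg3 (0.95), the interneuron list for Nrg2 (0.89) and the monocyte and macrophage list for Hbegf (0.93).

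Areg (ENSMUSG00000029378, chr5:91139599-91148432, plus strand), an Egfr ligand, was barely detected. Its read counts were 3, 2 and 8 in young sham, 2, 2 and 3 in young ICH, 2, 0 and 2 in aged sham and 3, 6 and 0 in aged ICH samples. A count of 0, seen in 2 samples, still allows 3 counts, which is 0.101 CPM in aged sham sample 2 and 0.0942 CPM in aged ICH sample 3. A change of Areg was not detectable at this depth. Of the 9 other EGF family genes listed, Ereg with 0 to 9 counts and Epgn with 1 to 7 counts per sample were as scarce and did not pass the filter.

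The other genes of the pathway were counted in 5 lists of 74 genes, of which 72 were tested. In young mice 17 rose and 15 fell, beside 9.89% and 9.23% of all genes tested, and in aged mice 15 rose and 9 fell, beside 7% and 6.15%. The number depended on the libraries: without the 3 libraries highest in choroid plexus genes, 10 rose and 10 fell in young mice, and 2 rose and 3 fell in aged mice, where the ICH group then had 1 sample. Leaving out 1 library at a time gave 9 that fell in young mice without young sham sample 2 or young ICH sample 3. In aged mice it gave 3 that fell without aged sham sample 1, 7 that rose and 5 that fell without aged sham sample 2, 5 and 3 without aged ICH sample 1, and 9 and 4 without aged ICH sample 3. None of the 72 was called in the test of the difference between ages by edgeR or DESeq2, where 2 had an unadjusted *P* under 0.05 by edgeR; over all genes tested, 0% were called and 2.82% had an unadjusted *P* under 0.05.

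Among the other ligands, Btc rose and Tmeff1, Cspg5 and Tmeff2 fell in young mice, and 2 of 7 tested fell in aged mice. Btc, which encodes the EGF receptor ligand betacellulin, was at 0.463 CPM in young sham and 1.30 CPM in young ICH tissue (log2FC 1.49, adjusted *P* = 0.0266, edgeR). Tmeff1, a transmembrane protein gene with an EGF-like domain, had a log2FC of -0.78 in young and -0.79 in aged mice (adjusted *P* = 0.00261 and 0.00514, edgeR). Tmeff2 had -0.25 and -0.36, and the neuron-derived Cspg5 had -0.27 in young mice. Of the 9 ligand release genes, 2 rose and 2 fell at each age. Rhbdf2 and Rhbdf1, inactive rhomboids of which Rhbdf2 is known to guide the Adam17 protease to the cell surface, rose with log2FC of 1.58 and 0.67 in young and 1.08 and 0.56 in aged mice. The proteases Bace1, which cuts Nrg1, and Adam19 fell, with -0.26 and -0.38 in young and -0.22 and -0.44 in aged mice.

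Of the 14 genes that attenuate the receptors or their signal, 5 rose in each comparison and 1 fell in young mice. Lrig1, which promotes receptor degradation, had a log2FC of 0.74 in young and 0.45 in aged mice, Ptpn1, a tyrosine phosphatase gene, had 0.30 and 0.33, Spry1, a feedback inhibitor of the Ras pathway, 0.78 and 0.71, and Errfi1, which inhibits the receptor kinases, 0.41 and 0.54. Spred2 fell in young mice by 0.34 on the log2 scale. Of the 27 genes that relay the signal, 5 rose and 7 fell in young mice and 3 rose and 4 fell in aged mice. The adaptor gene Shc1 had log2FC of 0.66 and 0.59 and the transcription factor gene Stat5a 1.08 and 0.77. The kinase genes Braf (-0.47 and -0.32) and Mtor (-0.37 and -0.33) fell at both ages, as did Sos1 (-0.32 and -0.19). Of the 15 early target genes, 4 rose and 2 fell in young mice and 5 rose and 1 fell in aged mice. Ier3 (1.29 and 1.05), Jun (0.83 and 0.85), Myc (1.12 and 0.93) and Fosl1 (0.67 and 0.74) rose at both ages and the ETS factor gene Etv5 fell (-0.72 and -0.54). Egr1 fell in young mice, from 308 to 145 CPM (log2FC -1.09, adjusted *P* = 0.00514, edgeR). The early target list summed to 566 to 895 CPM in young sham and 485 to 558 in young ICH samples. Aged samples summed to 519 to 563 CPM after sham and 489 to 598 after ICH. Its median log2FC was 0.04 in young and 0.59 in aged mice. Both pathway genes with an unadjusted *P* under 0.05 (edgeR) for the difference between ages were early targets, with the higher log2FC in aged mice.

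**Figure D5:**
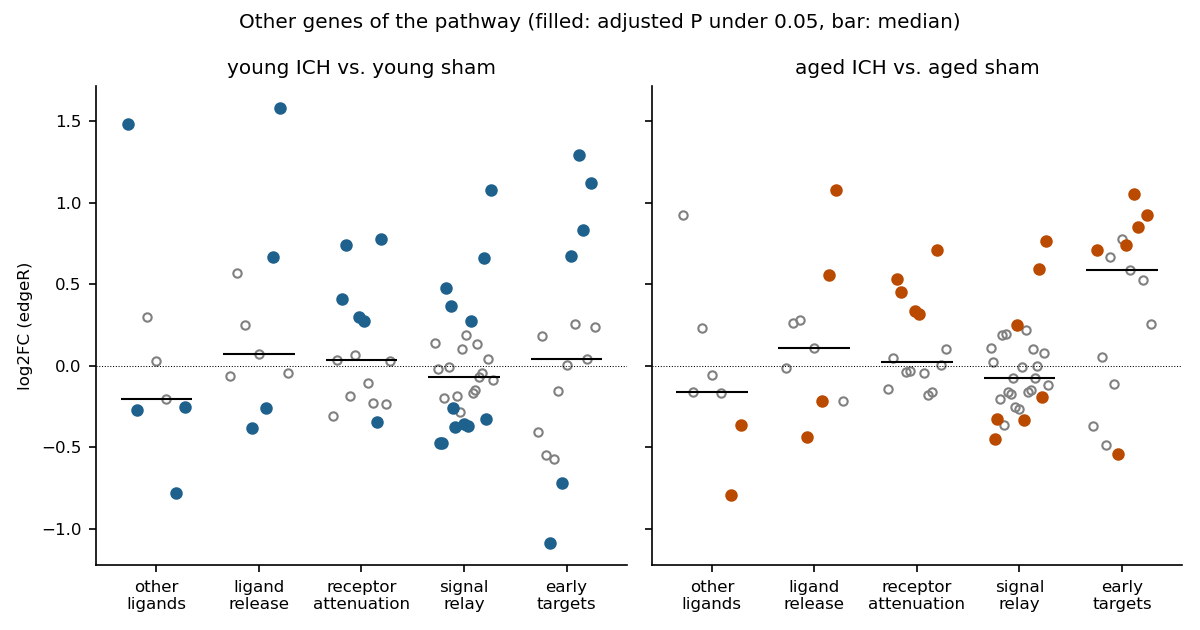
The log2FC of ICH vs. sham (vertical axis, edgeR) of the 72 tested genes of 5 pathway lists in young (left) and aged mice (right), 1 dot per gene, filled where the adjusted *P* was under 0.05, with a bar at the median of each list. Called genes lie on both sides of 0, 17 above and 15 below in young and 15 above and 9 below in aged mice.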

How the data were processed

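RNA of 12 tissue samples was sequenced by the authors from paired-end libraries. Reads were aligned with HISAT2 to GRCm38.p6 and counted per gene with featureCounts (Subread), per the labels and the study's methods; the strand setting was not given in the sources used here. The authors deposited raw read counts and FPKM for each sample. FPKM were used for levels between genes, and counts for all tests.

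Counts were analyzed with edgeR 4.0.16 (R 4.3.3) after filterByExpr (minimum count 10) and TMM scaling, in a quasi-likelihood fit of 4 groups of 3 samples with 8 residual degrees of freedom. CPM per sample used the scaled library sizes. Genes were called at a Benjamini-Hochberg adjusted *P* under 0.05 over 21495 genes. SE and 95% intervals came from the same fit. *P*-values measure the spread between pools of mice. Correlations used log2 CPM (prior count 2).

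The 9 members and all lists were chosen with earlier results of these data known. Named were all members, up to 3 called genes per pathway list, direction and comparison by *P*, up to 3 genes per cell type list, and the 5 genes most like Erbb4, Hbegf and Erbb3 (Areg, planned too, did not pass the filter). Some genes that this rule names are not reported here. The script was tested on simulated data. Alternatives were RLE scaling, DESeq2 1.42.0, no filter, a minimum count of 30, fits of 2 groups, a replicate block and leaving out each sample. Promoter sequences are from RefSeq (GRCm38.p6), which gave 5 of the members, and gene positions from GENCODE vM21 (GRCm38). The intervals include the spread between samples, and limits at 0 counts cover counting error only.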

Additional observations from a re-analysis of the deposited data

How the results depend on the processing

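Hbegf, Erbb4 and Nrg1 kept their calls in young mice under RLE scaling, DESeq2, no filter, a minimum count of 30, a fit of 2 groups and the replicate block. The number of members called higher in young ICH vs. young sham was 2 with DESeq2 and 2 with a minimum count of 30, in place of 1, through Erbb2. Leaving out each sample in turn gave 1 to 2 members called higher and 1 to 3 lower in young mice, and 2 to 2 higher and 3 to 4 lower without overlap in aged mice. It gave 12 to 17 pathway genes higher and 9 to 16 lower in young, and 5 to 16 higher and 3 to 10 lower in aged mice. Without the 3 libraries highest in choroid plexus genes, an alternative chosen after seeing the data, pathway genes called higher numbered 10 in young and 2 in aged mice, with 3 lower in aged mice, where the lone ICH sample was assumed to vary like the other groups; fewer samples entered each test.

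Small log2FC changed sign when a sample was left out. Erbb2 in aged ICH vs. young ICH ranged from -0.044 to 0.35. Erbb3 ranged from -0.23 to 0.036 in young ICH vs. young sham and from -0.18 to 0.043 in aged sham vs. young sham. Egfr in aged ICH vs. young ICH ranged from -0.060 to 0.081, and Nrg3 from -0.27 to 0.030. In aged sham vs. young sham, Nrg1 ranged from -0.25 to 0.025 and Nrg2 from -0.064 to 0.24. The cause was not tested.

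Samples with the same replicate number did not deviate together in every pair, with correlations of -0.45 to 0.23, so the numbers were not taken as pairs. With the replicate block, 1 member was called higher and 2 lower in young mice, pathway genes numbered 17 higher and 13 lower in young and 14 higher and 8 lower in aged mice, and no call of a member changed. The depth limits Areg, Ereg and Epgn, and the pooling of mice limits every test to 3 samples a group.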
